A study of Mus musculus with 6 samples.

Results

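Tendon progenitor factors and tendon matrix genes were followed in the soft palate, the muscular posterior part of the roof of the mouth, of mouse embryos at E14.0. The set is a chosen list of 7 genes out of the 21938 in the deposited table: the transcription factors Scx and Mkx, and the matrix and membrane genes Tnmd, Thbs4, Tnc, Fmod and Kera. All 7 were found in the table by symbol. RNA sequencing had been done on 3 mutant libraries (replicates 5, 6 and 7) and 3 control libraries (replicates 1, 2 and 3). Mutants were Osr2-Cre;b-catenin fl/fl, in which Cre recombinase driven from Osr2, a gene of palatal mesenchyme, deletes floxed β-catenin. Controls were b-catenin fl/fl animals without the Cre according to the extraction protocol, although the genotype field calls them wild type. If the protocol is right, floxed alleles are shared by both groups and no control carries the Cre, so an effect of the Osr2-Cre allele alone cannot be told apart from that of the deletion. Cells outside the Osr2 domain keep β-catenin. The series title places the study on canonical Wnt signalling and ciliary homeostasis. Whether a library came from 1 embryo or from several is not stated, so the p-values speak of the spread between libraries alone, part of which may be technical. The libraries held 10018610 to 15089379 counted reads, and 3 reads correspond to 0.199 to 0.299 CPM.

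Tendons join muscle to skeleton, and in the soft palate the palatal muscles insert into tendon and aponeurosis. Scx, a basic helix-loop-helix factor that binds E-box DNA, marks tendon progenitors from early on, and Mkx, an atypical homeobox factor, acts later on tendon collagen production. Tnmd is a membrane glycoprotein of differentiating tendon cells that depends on Scx. Thbs4 and Tnc are large secreted glycoproteins of tendon and of the junction with muscle, and Fmod and Kera are small leucine-rich proteoglycans that bind collagen fibrils.

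The regions upstream of 3 of the genes are shown because Tnc, Thbs4 and Tnmd had the lowest log2 changes of the 7 genes over all 6 libraries, none of them past the threshold. Each holds the 250 bases before the annotated start (RefSeq, GRCm38.p6). Capitals mark every match to the E-box CANNTG, which reads the same on both strands.
Tnc, chr4:64047016-64047265, minus strand: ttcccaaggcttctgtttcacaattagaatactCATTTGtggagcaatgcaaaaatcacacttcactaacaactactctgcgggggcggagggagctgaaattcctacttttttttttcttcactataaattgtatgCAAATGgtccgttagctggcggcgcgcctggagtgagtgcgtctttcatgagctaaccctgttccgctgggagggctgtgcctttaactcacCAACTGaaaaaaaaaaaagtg
Thbs4, chr13:92794819-92795068, minus strand: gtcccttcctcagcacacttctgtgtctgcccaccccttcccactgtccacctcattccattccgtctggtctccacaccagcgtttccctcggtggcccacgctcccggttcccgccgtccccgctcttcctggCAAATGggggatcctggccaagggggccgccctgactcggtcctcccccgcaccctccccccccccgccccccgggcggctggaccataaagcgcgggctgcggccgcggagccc
Tnmd, chrX:133850758-133851007, plus strand: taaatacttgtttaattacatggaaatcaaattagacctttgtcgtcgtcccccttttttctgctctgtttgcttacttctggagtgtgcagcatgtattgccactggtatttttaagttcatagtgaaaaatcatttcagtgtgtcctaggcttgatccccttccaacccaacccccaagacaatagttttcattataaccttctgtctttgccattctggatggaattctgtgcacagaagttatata
The Tnc window held 3 matches, 217, 113 and 21 bases before the start, and the Thbs4 window held 1, at 115 bases. The Tnmd window held 0. Windows were available for 5 of the 7 genes, with 2 starts for Tnc, and not for Scx or Mkx. Fmod had 1 match at 189 bases and Kera 0. An E-box was present in 66.2% of all 32851 windows of this length and in 3 of the 5 genes with a window. The letters CTTTGA, a core to which TCF/LEF factors are known to bind, occurred on either strand in 13.8% of all windows and in 0 of these. A match is a description of the letters only.

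None of the 7 genes passed the threshold, an adjusted p below 0.05 in limma over all 21938 genes (0 of 7, against 0.479% of all genes). Tnc came closest and was the one gene whose groups did not overlap. Scx, Tnmd and Thbs4 had lower means in the mutant, with 1 control library far above the other libraries. Mkx had a higher mean in the mutant. Fmod and Kera had mean CPM close to those of the control, with 1 mutant library far below the others for Kera. At an unadjusted p below 0.05 in limma, 1 of 7 was lower, Tnc, and 0 were higher, against 8.07% and 13.4% of all genes. By sign 6 were lower and 1 higher, against 43.9% and 56.1% of all genes. The groups did not overlap for 1 of 7 (27.8% of all genes), with 1 lower (10.8%) and 0 higher (17.1%). Values are CPM, counts per 1e6 counted reads, and changes are mutant minus control of log2(CPM + 1) with standard errors, a scale that understates the change of low genes.

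**Figure D1:**
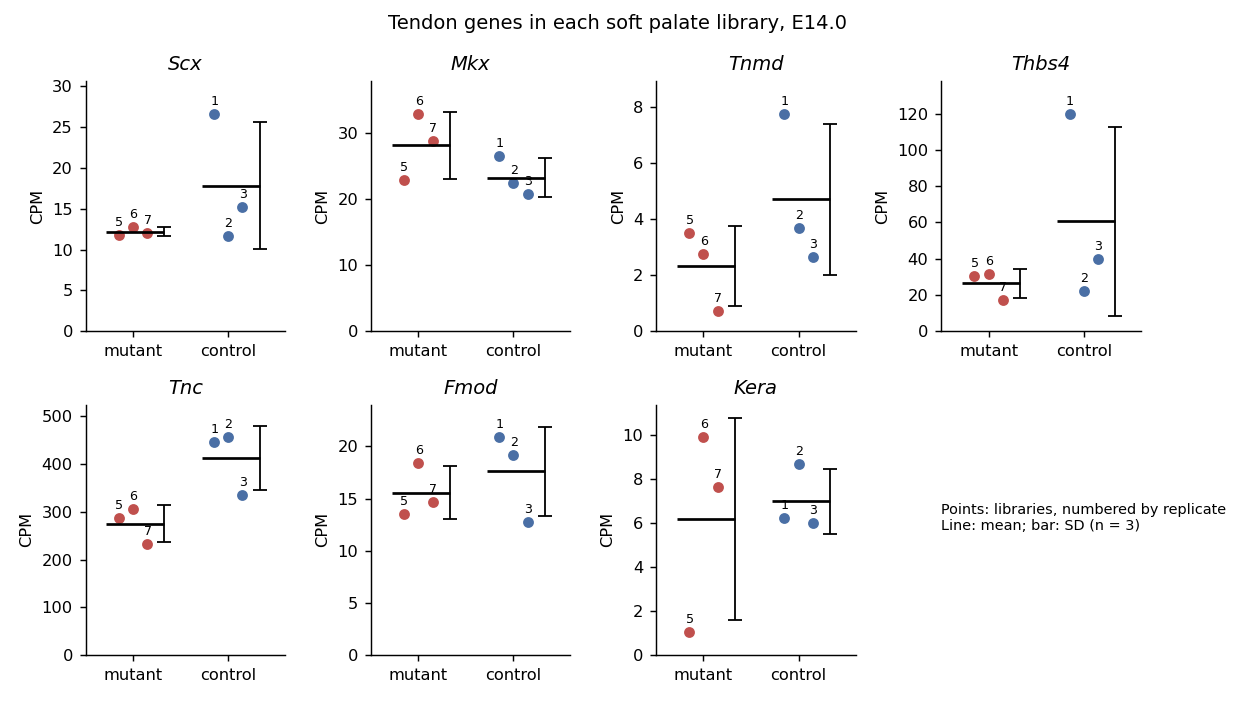
CPM of the 7 tendon genes in each library, mutant left of control, with the replicate number above each point, the mean as a line and the SD as a bar (n = 3 each). Control replicate 1 stands apart for Scx, Tnmd and Thbs4, mutant replicate 5 lies low for Kera, and Tnc is the gene without overlap between the groups.

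Scx (chromosome 15, 76457452 to 76459458, plus strand, GRCm38) measured 11.8, 12.8 and 12.0 CPM in mutant replicates 5, 6 and 7, against 26.6, 11.7 and 15.2 CPM in control replicates 1, 2 and 3. The 3 mutant libraries lay close together, inside the range of the controls, and control replicate 1 was far above all others. The mean was 12.2 ± 0.509 CPM in mutants and 17.8 ± 7.82 CPM in controls (SD, n = 3 each). The log2 change of -0.44 ± 0.25 (SE) had an adjusted p of 0.360 in limma, and the 95% interval of the fold ran from 0.496 to 1.10. Without control replicate 1 the change was -0.12. Scx overlaps Bop1 (mean 24.1 CPM) on the opposite strand but shares 0 exon bases with it. No label or header says whether reads were counted by strand, so unspliced Bop1 reads could still be counted for Scx.

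Mkx (chromosome 18, 6934518 to 7004780, minus strand) was the 1 member with a higher mean in the mutant. It measured 22.8, 32.9 and 28.8 CPM in mutant replicates 5, 6 and 7, against 26.5, 22.5 and 20.7 CPM in control replicates 1, 2 and 3. Mutant replicates 6 and 7 lay above every control, while mutant replicate 5 lay among the controls, so the groups overlapped. The mean was 28.2 ± 5.08 CPM in mutants and 23.2 ± 2.97 CPM in controls (SD, n = 3 each). In limma the log2 change was 0.26 ± 0.16 (SE, adjusted p 0.371), and the 95% interval of the fold ran from 0.937 to 1.53. Control replicate 1, which was highest of all for Scx, lay below mutant replicates 6 and 7 for Mkx. A predicted transcript on the same strand, AC148004.2, shares 201 exon bases with Mkx, so reads there could belong to either.

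Tnmd (chromosome X, 133850980 to 133865577, plus strand) had the lowest mean CPM of the 7 in both groups. It measured 3.50, 2.74 and 0.729 CPM in mutant replicates 5, 6 and 7, against 7.76, 3.69 and 2.65 CPM in control replicates 1, 2 and 3. Mutant replicate 7 was lowest and control replicate 1 highest, with the remaining 4 libraries between 2.65 and 3.69 CPM. The mean was 2.32 ± 1.43 CPM in mutants and 4.70 ± 2.70 CPM in controls (SD, n = 3 each). The log2 change was -0.79 ± 0.42 (SE, adjusted p 0.313 in limma), and the 95% interval of the fold ran from 0.299 to 1.12. These levels rest on about 11 reads in mutant replicate 7 and about 97 in control replicate 1. Counting error alone gives 0.364 to 1.30 CPM for mutant replicate 7 and 6.29 to 9.46 CPM for control replicate 1 (95%, exact Poisson), so both of these libraries lay outside the other 4 beyond counting error. Without mutant replicate 7 the change was -0.37, and without control replicate 1 it was -0.43.

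Thbs4 (chromosome 13, 92751590 to 92794818, minus strand) had an SD among controls close to its mean. It measured 30.5, 31.4 and 17.2 CPM in mutant replicates 5, 6 and 7, against 120.0, 22.2 and 39.6 CPM in control replicates 1, 2 and 3. Control replicate 1 was 3.88 times the mean of the other 2 controls, and those 2 lay on either side of mutant replicates 5 and 6. The mean was 26.3 ± 7.96 CPM in mutants and 60.6 ± 52.2 CPM in controls (SD, n = 3 each). The log2 change of -0.87 ± 0.52 (SE) had an adjusted p of 0.366 in limma, and its 95% interval of the fold ran from 0.242 to 1.23. It was -0.21 without control replicate 1 and -1.41 without control replicate 2.

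Tnc (chromosome 4, 63959785 to 64047015, minus strand) measured 286.0, 306.6 and 232.4 CPM in mutant replicates 5, 6 and 7, against 446.7, 456.2 and 336.2 CPM in control replicates 1, 2 and 3. Every mutant library lay below every control library, which holds in that direction for 1 of the 7 genes and for 10.8% of all genes. The mean was 275.0 ± 38.3 CPM in mutants and 413.0 ± 66.7 CPM in controls (SD, n = 3 each). In limma the log2 change was -0.58 ± 0.15 (SE). Its adjusted p of 0.0901 misses the threshold (unadjusted p 0.00350), and the 95% interval of the fold, not adjusted for the number of genes, was 0.530 to 0.842. With single libraries left out the change stayed between -0.72 and -0.46. Tnc was also the 1 member in the authors' deposited table of 2432 filtered genes, which holds 11.1% of the genes with a filter that no label or header states. Tnc is made by several connective tissues, perichondrium and mesenchyme as well as tendon, so its level in a tissue piece is not a measure of tendon alone. An antisense transcript, 8030451A03Rik, shares 176 exon bases with it and averaged 1.68 CPM. No label or header says whether reads were counted by strand, so reads in the shared bases could belong to either gene.

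Fmod (chromosome 1, 134037254 to 134048277, plus strand) measured 13.5, 18.4 and 14.7 CPM in mutant replicates 5, 6 and 7, against 20.9, 19.2 and 12.8 CPM in control replicates 1, 2 and 3. The mutants lay wholly inside the range of the controls. The mean was 15.5 ± 2.54 CPM in mutants and 17.6 ± 4.27 CPM in controls (SD, n = 3 each), and the log2 change of -0.15 ± 0.20 (SE, adjusted p 0.691 in limma) was smaller than its error. Its 95% interval of the fold was 0.660 to 1.23.

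Kera (chromosome 10, 97606879 to 97613692, plus strand) measured 1.06, 9.88 and 7.62 CPM in mutant replicates 5, 6 and 7, against 6.24, 8.68 and 6.00 CPM in control replicates 1, 2 and 3. Mutant replicate 5 alone was low, with about 13 reads and a counting interval of 0.564 to 1.81 CPM (95%, exact Poisson), while mutant replicate 6 was the highest library of all. The mean was 6.19 ± 4.58 CPM in mutants and 6.97 ± 1.49 CPM in controls (SD, n = 3 each). The log2 change was -0.45 ± 0.54 (SE, adjusted p 0.666 in limma), and the 95% interval of the fold ran from 0.313 to 1.72. Without mutant replicate 5 the change was 0.30. Mutant replicate 5 was the highest of the 6 libraries for 22.2% of all genes, for 3 of 5 neuronal markers and for 8 of 8 measured bone markers. The bone markers summed to 931.2 CPM there, against 546.1 and 406.1 CPM in mutant replicates 6 and 7 and 240.4 to 435.7 CPM in controls. The part of this in the low Kera value was not tested. Of 4 eye genes looked at because Kera is best known from the cornea, Aldh3a1 and Pax6 were in the table and summed to 2.81 to 8.02 CPM in mutants and 2.41 to 6.80 CPM in controls.

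**Figure D2:**
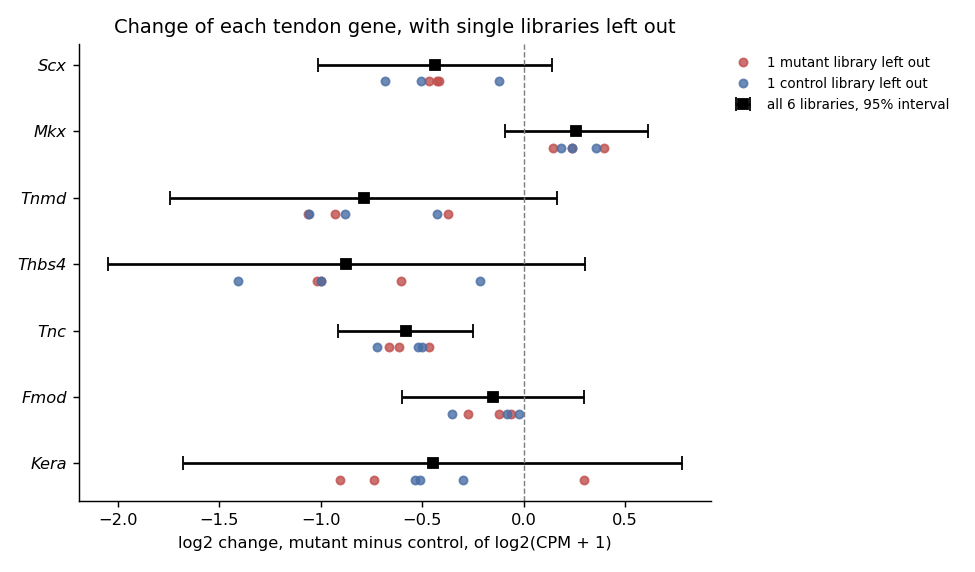
Change of each of the 7 genes, mutant minus control, of log2(CPM + 1): the square and bar give the fit on all 6 libraries with its 95% interval, and the points below give the change with 1 mutant or 1 control library left out. The interval of Tnc lies below 0 (before adjustment), the intervals of the other 6 cross 0, and Kera changes sign without mutant replicate 5.

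Levels of different genes were compared per kilobase of exon (GENCODE vM21). Tnc was highest in both groups, at 35.4 ± 4.93 CPM per kb in mutants and 53.1 ± 8.58 in controls (SD, n = 3 each). Thbs4 came next by mean, at 8.01 ± 2.42 CPM per kb in mutants and 18.4 ± 15.9 in controls. The transcription factors were of similar level, Mkx at 6.88 ± 1.24 and Scx at 6.08 ± 0.253 CPM per kb in mutants, against 5.67 ± 0.727 for Mkx and 8.89 ± 3.90 for Scx in controls. Fmod had 4.70 ± 0.769 CPM per kb in mutants and 5.32 ± 1.29 in controls. The lowest were Kera, at 2.71 ± 2.01 in mutants and 3.06 ± 0.652 in controls, and Tnmd, at 1.72 ± 1.06 in mutants and 3.47 ± 1.99 in controls. Below Tnc some ranges overlapped and others were separate. In mutants, the ranges of Scx, Mkx and Thbs4 overlapped one another, and each lay above those of Kera and Tnmd. The mutant range of Fmod, 4.09 to 5.57 CPM per kb, lay below that of Scx, 5.89 to 6.36. In controls, the range of Kera, 2.63 to 3.81 CPM per kb, lay below that of Fmod, 3.86 to 6.31. It also lay below those of Mkx, Scx and Thbs4.

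The libraries differed in ways that bear on these values. Of the 7 genes, 4 were highest in control replicate 1 (Scx, Tnmd, Thbs4 and Fmod), where 12.3% of all genes had their highest value. In mutant replicate 7, 3 were lowest (Tnmd, Thbs4 and Tnc). The share of all genes lowest in that library was not taken, so this count has no background to be read against. Skeletal muscle markers were lower in the mutant in 15 of 15 cases (43.9% of all genes by sign), 8 of them past the threshold in limma (0.283% of all genes). They summed to 4844, 5979 and 4953 CPM in mutant replicates 5, 6 and 7, against 15258, 7269 and 11025 CPM in control replicates 1, 2 and 3. In the controls Scx and Thbs4 followed the same order as these muscle markers, with replicate 1 above replicate 3 and replicate 3 above replicate 2, whereas the other 5 genes, Mkx, Tnmd, Tnc, Fmod and Kera, did not. Control replicate 1 also held the most RNA of cartilage markers among controls, 728.9 CPM against 330.8 and 333.4 CPM in control replicates 2 and 3. The mutants held 571.0, 496.9 and 775.0 CPM in replicates 5, 6 and 7. By sign 9 of 9 cartilage markers and 7 of 8 bone markers were higher in the mutant, against 56.1% of all genes. With 1 library left out the cartilage median of 0.45 ran from 0.16 to 0.94. The low end was without mutant replicate 7, where 3 were lower by sign, and the high end without control replicate 1. The bone median of 0.49 ran from 0.29 (without mutant replicate 5) to 0.76 (without mutant replicate 7). In each of these lists 0 passed the threshold and 2 were higher at an unadjusted limma p below 0.05 (13.4% of all genes). Calls past the threshold depended on single libraries: over all genes there were 105, and leaving out replicate 5 or 6 of the mutant, or 1 or 3 of the control, left 0. Leaving out mutant replicate 7 left 2, and leaving out control replicate 2 gave 452. The part of muscle or cartilage content in the tendon values was not tested. In a tissue piece, fewer cells of a type and less RNA per cell cannot be told apart.

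**Figure D3:**
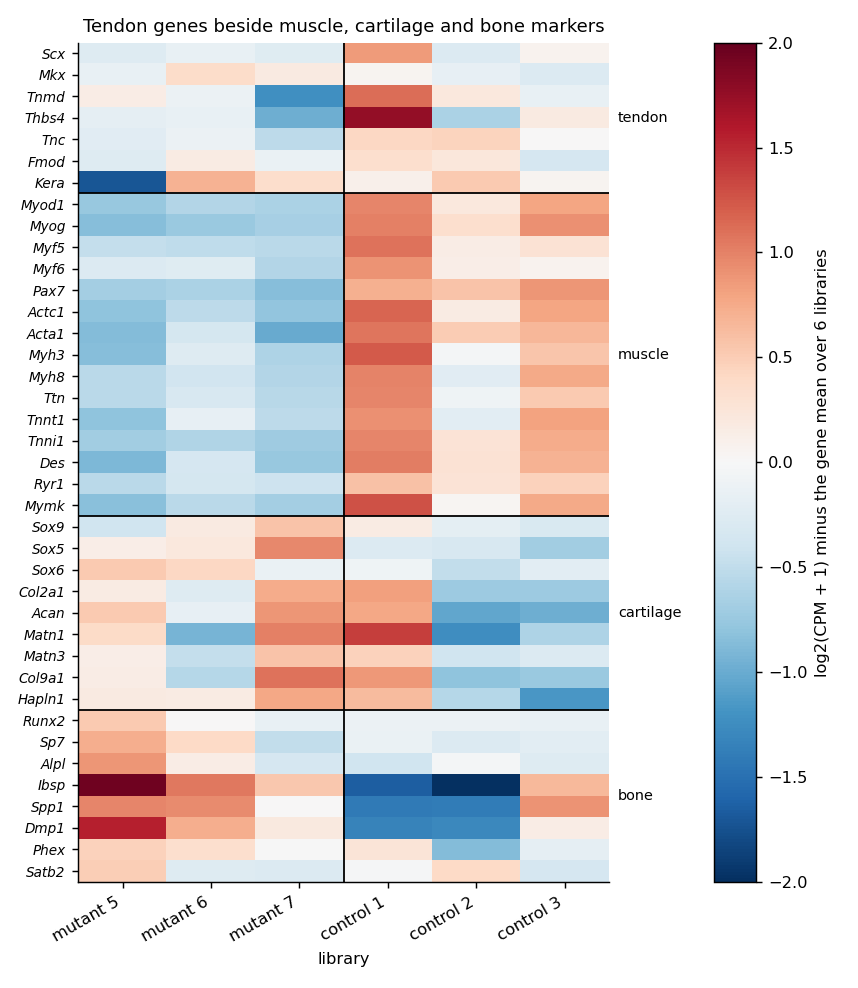
Level of each gene in each library relative to its mean over the 6 libraries, log2(CPM + 1), for the 7 tendon genes (top) and markers of muscle, cartilage and bone, with mutant libraries left of control libraries. Muscle markers are low in the 3 mutants as a block, as is Tnc to a smaller degree, while other tendon genes stand out in single libraries, such as control replicate 1 for Thbs4 and mutant replicate 5 for Kera.

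Among the other markers, whole lists are given as summed CPM. At an unadjusted limma p below 0.05, 8.07% of all genes were lower and 13.4% higher. By sign 43.9% of all genes were lower and 56.1% higher, and 0.479% passed the threshold. Epithelial markers (8 of 8 with higher means on the log2 scale, 0 past the threshold, 1 at an unadjusted p below 0.05 in limma) summed to 1228 to 1834 CPM in mutants and 953.7 to 1589 in controls. Markers of ciliated epithelium (6 of 6 higher, 0 past the threshold, 5 at an unadjusted p below 0.05) summed to 210.5 to 277.3 CPM in mutants and 69.7 to 199.3 in controls. Erythroid markers (5 of 5 lower, 0 past the threshold, 5 at an unadjusted p below 0.05) summed to 361.2 to 626.8 CPM in mutants and 760.7 to 2154 in controls. Smooth muscle and pericyte markers (6 of 7 lower, 1 past the threshold, 3 at an unadjusted p below 0.05) summed to 151.6 to 189.2 CPM in mutants and 263.2 to 350.7 in controls. The 1 past the threshold was Acta2, which weighs heavily in these sums. It averaged 56.8 ± 5.42 CPM in mutants and 156.9 ± 43.9 CPM in controls (SD, n = 3 each; adjusted p 0.0296 in limma). The pericyte markers Rgs5 and Pdgfrb overlapped between the groups, and Cnn1 was the 1 higher by sign. Macrophage, glial, neuronal and endothelial lists had 0 genes past the threshold and 0 with an unadjusted limma p below 0.05. Macrophage markers (5 of 5 lower) summed to 69.2 to 86.4 CPM in mutants and 84.9 to 95.3 in controls. Glial markers (4 of 5 lower) summed to 110.4 to 126.8 CPM in mutants and 123.9 to 153.8 in controls. Neuronal markers (5 of 5 lower) summed to 85.8 to 470.6 CPM in mutants and 271.2 to 509.5 in controls, and endothelial markers (3 of 5 lower) to 197.3 to 278.6 CPM in mutants and 167.5 to 274.3 in controls. No marker found in the deposited table was at 0 in all libraries. Palatal mesenchyme markers were present in every library and summed to 547.6 to 642.9 CPM in mutants and 666.0 to 762.4 in controls, with Osr2, the locus of the Cre, at 16.1 ± 3.22 CPM in mutants and 46.9 ± 11.2 CPM in controls (adjusted p 0.0285 in limma). The targeted gene Ctnnb1 averaged 600 ± 29.1 CPM in mutants and 718.1 ± 59.0 CPM in controls (SD, n = 3 each; adjusted p 0.183 in limma), with no overlap between the groups. Ctnnb1 shares 759 exon bases with Ulk4 on the opposite strand.

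The genes that work with the 7 were taken from 7 lists holding 75 measured genes. None passed the threshold in limma. At an unadjusted limma p below 0.05, 19 were lower and 1 higher, against 8.07% and 13.4% of all genes. The median log2 change of the 75 was -0.20, against -0.45 for the 7 tendon genes and 0.04 for all genes. Over genes with a mean CPM at or above the median of all genes, the median change was -0.02. With 1 library left out, the median of the 7 tendon genes ran from -0.66 (without mutant replicate 6) to -0.21 (without control replicate 1). In all, 55 of the 75 had a lower level in the mutant by sign, against 43.9% of all genes. Most of these genes are made by mesenchyme in general and not by tendon alone.

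Signals and transcription factors came first in order of action. TGF-beta ligands and FGF signals are known to induce Scx, and Egr1 and Egr2 act on tendon collagen genes. Of 15 genes, 0 passed the threshold in limma and 4 were lower at an unadjusted p below 0.05 (8.07% of all genes). The median was -0.20. With 1 library left out it ran from -0.30 (without control replicate 2) to -0.15 (without mutant replicate 6), and was also -0.15 without control replicate 1. Six2, a homeobox factor, averaged 54.1 ± 3.92 CPM in mutants and 81.6 ± 17.7 CPM in controls (SD, n = 3 each; adjusted p 0.108 in limma). Etv4, an ETS factor and a target of FGF signalling, averaged 3.07 ± 0.401 CPM in mutants and 5.48 ± 1.04 CPM in controls (adjusted p 0.118 in limma). Its relative Etv5 averaged 26.4 ± 3.46 CPM in mutants and 35.9 ± 5.01 CPM in controls. The ligand Tgfb3 averaged 87.4 ± 12.8 CPM in mutants and 110.2 ± 5.07 CPM in controls (adjusted p 0.150 in limma). These 4 were named for the smallest p of the list, and all had every mutant library below every control library. Over the whole list that held for 5 of 15 genes, against 10.8% of all genes.

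Collagens were lower by sign in 10 cases and higher in 2. Of 12 collagen genes of tendon, 0 passed the threshold in limma. At an unadjusted limma p below 0.05, 4 were lower (8.07% of all genes), and the median was -0.23. With 1 library left out the median ran from -0.39 (without mutant replicate 5) to -0.06 (without mutant replicate 7), and was -0.13 without control replicate 1. Those 4 were Col3a1, a fibrillar chain, and the 3 chains of collagen VI, which surrounds cells with a beaded network. Col6a1 averaged 162.7 ± 33.0 CPM in mutants and 252.6 ± 52.6 CPM in controls (SD, n = 3 each; log2 change -0.63 ± 0.19, adjusted p 0.120 in limma). Col6a2 averaged 221.5 ± 42.3 CPM in mutants and 332.9 ± 64.3 CPM in controls. Col6a3 averaged 621.7 ± 82.2 CPM in mutants and 793.7 ± 134.6 CPM in controls. Col3a1 averaged 1625 ± 268.7 CPM in mutants and 2338 ± 427.3 CPM in controls. Col1a1, the main chain of tendon fibrils and of bone (named after its values were seen), averaged 2851 ± 700.1 CPM in mutants and 2902 ± 656.1 CPM in controls.

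The small leucine-rich proteoglycans other than Fmod and Kera had 8 of 10 genes higher by sign, with a median of 0.31. With 1 library left out the median ran from 0.07 (without control replicate 3) to 0.38 (without control replicate 1), and was 0.19 without mutant replicate 6. None passed the threshold and 0 had an unadjusted limma p below 0.05. Omd, which is also made by bone cells, averaged 8.62 ± 1.88 CPM in mutants and 6.16 ± 0.677 CPM in controls (SD, n = 3 each). Podn averaged 16.1 ± 5.41 CPM in mutants and 10.2 ± 5.05 CPM in controls. Chad, of cartilage, averaged 2.89 ± 0.875 CPM in mutants and 2.07 ± 0.430 CPM in controls. Bgn averaged 118.6 ± 12.7 CPM in mutants and 147.8 ± 31.6 CPM in controls.

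Of 8 paralogs of the 7 genes, 4 were lower and 4 higher by sign, and 0 passed the threshold or had an unadjusted limma p below 0.05. With 1 library left out the median of -0.06 ran from -0.14 (without control replicate 3) to 0.15 (without control replicate 1), and was -0.12 without mutant replicate 5 and 0.07 without mutant replicate 6. Tnn, a tenascin related to Tnc, averaged 62.8 ± 22.7 CPM in mutants and 102.4 ± 46.9 CPM in controls (SD, n = 3 each; log2 change -0.63 ± 0.39, adjusted p 0.380 in limma). Its groups overlapped, and with 1 library left out its change ran from -1.09 (without control replicate 3) to -0.34 (without mutant replicate 7). Tnxb averaged 2.73 ± 1.06 CPM in mutants and 6.15 ± 6.08 CPM in controls, with control replicate 2 at 13.2 CPM far above the rest. Its log2 change was -0.66, and it was -0.97 without control replicate 1, about the same without control replicate 3, and -0.01 without control replicate 2. The thrombospondins Thbs2 and Thbs3 had higher means in mutants without passing. Thbs2 averaged 252.7 ± 62.0 CPM in mutants and 208.8 ± 63.3 CPM in controls. Thbs3 averaged 44.6 ± 2.27 CPM in mutants and 39.6 ± 4.37 CPM in controls, with every mutant library above every control (17.1% of all genes).

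Of 11 other genes of the tendon lineage, 0 passed the threshold in limma. At an unadjusted limma p below 0.05, 2 were lower (8.07% of all genes), and the median was -0.32. With 1 library left out the median ran from -0.43 (without mutant replicate 5) to -0.13 (without control replicate 1). Cilp, a matrix protein first known from cartilage, measured 5.62, 5.55 and 2.72 CPM in mutant replicates 5, 6 and 7, against 23.7, 8.58 and 8.57 CPM in control replicates 1, 2 and 3. Every mutant library was below every control, and control replicate 1 again stood apart. Its log2 change was -1.27 ± 0.39 (SE, adjusted p 0.124 in limma) and ran from -1.50 (without control replicate 3) to -0.81 (without control replicate 1) with 1 library left out. Fibin, a secreted factor, averaged 31.4 ± 9.52 CPM in mutants and 58.4 ± 19.1 CPM in controls (SD, n = 3 each; adjusted p 0.129 in limma). Htra3, a secreted protease, averaged 9.73 ± 1.53 CPM in mutants and 12.8 ± 4.15 CPM in controls. Cilp2 averaged 0.780 ± 0.396 CPM in mutants and 1.20 ± 0.280 CPM in controls.

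Genes of the myotendinous junction were lower by sign in 10 of 10 cases, with a median of -0.35. At an unadjusted limma p below 0.05, 4 were lower (8.07% of all genes), and 0 passed the threshold. With 1 library left out the median ran from -0.56 (without mutant replicate 5) to -0.18 (without mutant replicate 7), and was -0.23 without control replicate 1. Ankrd1, a stretch-responsive protein of striated muscle and of other cells under load, measured 2.69, 2.28 and 1.52 CPM in mutant replicates 5, 6 and 7, against 7.92, 4.09 and 6.07 CPM in control replicates 1, 2 and 3. The groups did not overlap, and the log2 change was -1.13 ± 0.25 (SE, adjusted p 0.0763 in limma). Without control replicate 2 it was -1.35 with an adjusted limma p of 0.0434, which passes. Itga7, the muscle integrin that binds laminin, averaged 4.74 ± 1.48 CPM in mutants and 8.80 ± 1.37 CPM in controls (SD, n = 3 each; adjusted p 0.113 in limma). Vcl, of cell adhesions, averaged 185.6 ± 20.3 CPM in mutants and 220.5 ± 6.77 CPM in controls. Lama2, a laminin chain, averaged 76.2 ± 15.5 CPM in mutants and 105.9 ± 25.9 CPM in controls. Most genes of this list are made on the muscle side, and the muscle markers given above were lower in the same libraries. The part of this in the junction values was not tested.

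Of 9 enzymes and chaperones of collagen, 5 were lower and 1 higher by an unadjusted limma p below 0.05, against 8.07% and 13.4% of all genes. None passed the threshold, and the median was -0.38. With 1 library left out the median ran from -0.52 (without control replicate 3) to -0.26 (without control replicate 1). In control replicate 1, 7 of the 9 had their highest value, against 12.3% of all genes. Plod1, a lysyl hydroxylase, averaged 27.9 ± 4.49 CPM in mutants and 40.9 ± 8.12 CPM in controls (SD, n = 3 each; adjusted p 0.134 in limma). Loxl2, a lysyl oxidase, averaged 127.7 ± 19.1 CPM in mutants and 171.7 ± 31.0 CPM in controls. Serpinh1, the collagen chaperone, averaged 597.7 ± 72.9 CPM in mutants and 780.5 ± 133.2 CPM in controls. The 1 higher gene was Loxl4, another lysyl oxidase, at 4.28 ± 0.188 CPM in mutants and 2.31 ± 0.798 CPM in controls (adjusted p 0.128 in limma).

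**Figure D4:**
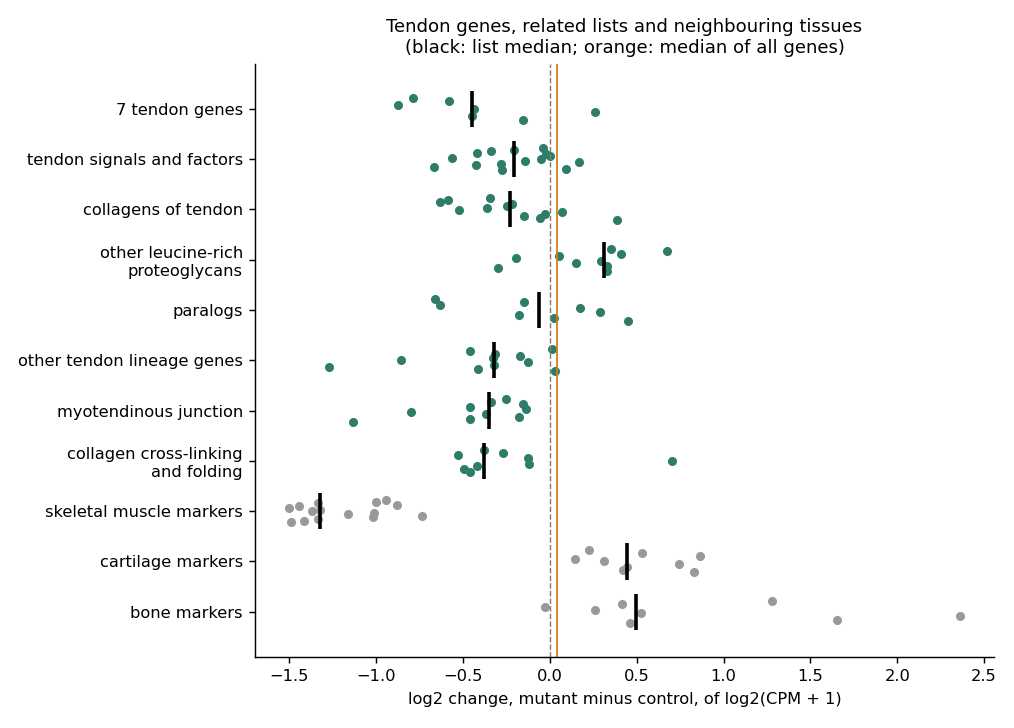
Change of each gene, mutant minus control, of log2(CPM + 1), for the 7 tendon genes, the 7 related lists (green) and markers of muscle, cartilage and bone (grey). Black bars are list medians, from -0.45 for the tendon genes to 0.31 for the other leucine-rich proteoglycans within the green lists, and the orange line is the median of all genes at 0.04.

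Genes with the most similar profile over the 6 libraries were found by the root-mean-square difference of log2(CPM + 1) after centring each gene, among 11744 genes of at least 5 CPM. Smaller is more alike, and each member's own root-mean-square deviation is the scale to read it against. For Scx (own deviation 0.40) they were Tgfb2 at 0.12, a TGF-beta ligand that is itself an inducer of Scx and on the list above, then Shisa2 and Zdbf2 at 0.13 each. Tgfb2 measured 82.9, 77.2 and 89.3 CPM in mutant replicates 5, 6 and 7, against 162.3, 87.8 and 96.7 CPM in control replicates 1, 2 and 3, with the same single high library as Scx. For Tnc (own deviation 0.34) they were Oaf at 0.05, Col3a1 at 0.07 and Col6a2 at 0.07, the last 2 being collagens described above. For Thbs4 (own deviation 0.87) they were Myh2 at 0.32, Il33 at 0.36 and Myom1 at 0.37, with Myh2 and Myom1 encoding a myosin and an M-band protein of striated muscle.

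For Tnmd (own deviation 0.69) they were Nptx1 at 0.24, Itih5 at 0.28 and the pericyte marker Rgs5 at 0.30. The neighbours of Tnmd and of Thbs4 were both looser than those of Scx and Tnc. Kera (own deviation 0.80) had none close. Its nearest were Meox2 at 0.40, Grem1 at 0.43 and Sim2 at 0.44, each low in mutant replicate 5, where Meox2, a homeobox factor of palatal mesenchyme, measured 18.1 CPM against 49.5 and 41.2 CPM in mutant replicates 6 and 7 and 44.4 to 87.4 CPM in controls. Mkx (own deviation 0.22) was nearest to Uxs1 at 0.07, Nudt12 at 0.08 and Crybg3 at 0.08, and Fmod (own deviation 0.25) to Ccnq at 0.04, Slc35a1 at 0.06 and Il13ra1 at 0.07. Among the 7 genes themselves, Mkx and Fmod were the closest pair at 0.25, a distance no smaller than the deviation of Mkx and about that of Fmod, and Thbs4 and Kera the farthest at 1.22. Scx and Tnmd differed by 0.50, more than the deviation of Scx itself. The likeness is a description of these 6 libraries, chosen from 11744 candidates.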

How the data were processed

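RNA of soft palate tissue was sequenced in 3 mutant and 3 control libraries. The submitters' processing notes name STAR and mm10 without a version. The authors deposited CPM values, and the smallest value shows that 0.0001 had been added to all, which was subtracted. How reads were counted, by which annotation and whether by strand, no source states. Samples were rows, matched by name, and 0 columns of sample values were unused. The step between low values put the depth at 10018610 to 15089379 counted reads per library, with 64.1 to 68.3% of low values within 0.02 of whole reads, so whole reads were not recovered and no count test was run. Intervals from read numbers cover counting error only.

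Mutant was compared with control in limma 3.58.1 (R 4.3.3) on log2(CPM + 1), with a prior variance that follows the mean level, no filter, and Benjamini-Hochberg adjustment over 21938 genes at 0.05. The fit was also run on simulated libraries with the same relative spread for every gene, which cannot show how it performs on libraries as uneven as these. Positions and exon lengths came from GENCODE vM21 (GRCm38, the assembly of mm10).

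Members and lists were chosen with earlier results of these data known. Named genes were the 7 members, up to 4 genes of smallest p in each related list, and the 3 genes nearest in profile to each member, passing over pseudogenes and clone identifiers. Snorc, Bglap, Krt12 and Cryaa, on the marker lists, were not found in the deposited table by symbol and so were not used. Alternatives changed the pseudocount (0.1), a filter (mean of at least 1 CPM), the scaling (median of well-expressed genes, or an unweighted trimmed mean of M values), the trend, the threshold (0.1) and left out each library.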

Additional observations from a re-analysis of the deposited data

How the results depend on the processing

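None of the 7 tendon genes passed an adjusted p of 0.05 in limma under any alternative run at that threshold, and at a threshold of 0.1 there was 1, Tnc. Of the 75 related genes, 0 passed in limma in the main setting, 0 to 1 with a library left out (Ankrd1, without control replicate 2, adjusted p 0.0434) and 1 at a threshold of 0.1, again Ankrd1. Over all genes the count of 105 became 0 to 452 with 1 library left out, 0 with a prior variance without a trend and 999 at a threshold of 0.1. Kera was the 1 tendon gene to change sign, at 0.30 without mutant replicate 5, with a range of -0.90 to 0.30. With a library left out, Scx ranged from -0.68 to -0.12, Mkx from 0.14 to 0.40, Tnmd from -1.06 to -0.37, Thbs4 from -1.41 to -0.21, Tnc from -0.72 to -0.46 and Fmod from -0.36 to -0.02. For Tnc the adjusted p ran from 0.0770 to 0.301 over the alternatives. With a pseudocount of 0.1 the change of Tnmd was -1.09 and of Kera -0.64. Scaling moved the median of all genes from 0.04 to 0.06 or 0.00 (log2) and turned the sign of no tendon gene. No paired analysis was possible because mutant and control libraries share no replicate numbers. At these depths Tnmd and Kera rest on 11 to 130 reads a library.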
